A study of Mus musculus with 5 samples.

Results

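The mitochondrial ribosomal protein genes were followed in mouse bone marrow mesenchymal stem cells held under continuous negative pressure. They were taken as the protein-coding genes whose mouse symbol begins with Mrpl or Mrps followed by a number and at most 1 letter, which gave 78 of the 55401 genes in the deposited table. Of these, 77 had a mean of at least 1 FPKM (fragments per kilobase of exon and per library total, so a level per length) over the 5 libraries and are called measured, and 1, Mrpl53, was listed at 0 in every library.

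Bone marrow mesenchymal stem cells are plastic-adherent stromal cells that can be turned into bone, cartilage or fat cells in culture. The cells were of wild-type genotype, the age of the animals is not given in the labels, and cultures lasted 72 h. Negative pressures of -80, -120, -160 and -200 mmHg, drawn by a vacuum pump, were held for 48 h, and a culture labelled 0 mmHg was the control. Each condition had 1 library, so no difference from the control has a replicate check, no p-value is given, and all 4 pressures are set against the same control library. In bulk RNA, fewer cells of a type and less RNA per cell cannot be told apart.

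Mitochondria carry their own ribosome, which translates only the few mRNAs encoded by mitochondrial DNA, all for core subunits of the respiratory chain and ATP synthase. Its RNAs are made inside the organelle, but every one of its proteins is encoded in the nucleus, made in the cytosol and imported. Many of these proteins descend from those of bacterial ribosomes, and others were added during the evolution of mitochondria. The small subunit reads the mRNA, and the large subunit forms the peptide bond and is held at the inner membrane.

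Library totals recovered from the FPKM values lay between 16600622 and 18398911 reads. The control differed from the pressure libraries in more than the members. It held 2493 reads of the Y-linked genes Ddx3y, Eif2s3y, Kdm5d and Uty, which had 0 reads in every pressure library, so an effect of pressure and another origin of the cells in the control cannot be told apart. Of 12 stromal markers 10 were measured, and the summed level of the list was between 2134 and 2373 FPKM under pressure against 3450 FPKM in the control. The list did not move 1 way, since 5 of the 10 were below and 5 above the control at all 4 pressures. Of this list Thy1 reached up to 1.83 FPKM under pressure against 0.0181 FPKM in the control, and Lepr and Nt5e averaged under 1 FPKM. Of the 10 haematopoietic and macrophage markers, Itgam and Cd3e were at 0 in all 5 libraries and Ptprc was at or near 0, but 4 others were measured. The median level of these 4 was between 26.7 and 30.4 FPKM under pressure against 12.9 FPKM in the control. The summed level of the 10 was between 111 and 122 FPKM under pressure against 67.3 FPKM in the control. All 4 measured markers were above the control at all 4 pressures, against 51.5% of all measured genes. Of the 4 markers, 3 were at least 2-fold higher on the log2(FPKM + 1) scale at every pressure, against 6.49%. The 6 osteoclast markers, of which 2 were measured, summed to between 3.80 and 4.87 FPKM under pressure against 90.1 FPKM in the control. The 6 endothelial markers, of which only 1 was measured, summed to between 3.39 and 4.95 FPKM against 1.09 FPKM. The part of these differences in the values of the mitochondrial ribosomal genes was not tested.

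Mitochondrial ribosomal protein genes took a smaller share of the reads under every pressure. Their reads made up 0.432%, 0.296%, 0.309%, 0.311% and 0.324% of the library at 0, -80, -120, -160 and -200 mmHg. The exact 95% binomial intervals reached from 0.293% to 0.327% over the pressure libraries and from 0.429% to 0.435% in the control. The groups did not overlap. Per library total, the summed reads were at -80 mmHg 0.686 times those of the control (95% interval 0.678 to 0.693). The ratio was 0.715 (0.707 to 0.723) at -120 mmHg, 0.721 (0.713 to 0.729) at -160 mmHg and 0.751 (0.743 to 0.759) at -200 mmHg. All such intervals are exact Clopper-Pearson intervals of reads and cover counting error only.

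The typical member was lower by about the same amount. The median level of the 77 measured members was 21.1, 14.5, 15.1, 14.9 and 16.0 FPKM at 0, -80, -120, -160 and -200 mmHg. On the log2(FPKM + 1) scale the median differences from the control were -0.50, -0.42, -0.41 and -0.37 in order of pressure. Over all 12113 measured genes the corresponding medians were 0.16, 0.14, 0.15 and 0.14, so the members lay below both the control and the typical gene. The log2(FPKM + 1) scale understates changes of genes with low values.

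Few members changed by a large factor. The size rule asked for a difference of at least 2-fold on this scale among measured genes. At -80 mmHg 8 of the 77 measured members (10.4%) passed it downwards, against 6.89% of all measured genes. At -120 mmHg 7 members (9.09%) did, against 6.45%, at -160 mmHg 6 members (7.79%), against 6.03%, and at -200 mmHg 6 members (7.79%), against 6.38%. These shares lay near the background. No member passed the rule upwards at any pressure (0 of 77), whereas 10.7%, 8.85%, 9.59% and 9.1% of all measured genes did at -80, -120, -160 and -200 mmHg.

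The small differences were largely in 1 direction. All 4 pressure libraries were below the control in 64 of 77 members (83.1%), against 33.3% of all measured genes. All 4 were above it in 4 members, Mrpl49, Mrps12, Mrps34 and Mrps2, against 51.5% of all measured genes. The other 9 members, Mrpl16, Mrpl21, Mrpl43, Mrpl57, Mrps5, Mrps10, Mrps11, Mrps18b and Mrps31, had pressure values on both sides of the control. The counting interval of the ratio to the control lay wholly below 1 in 64, 62, 61 and 57 members at -80, -120, -160 and -200 mmHg, against 30.8%, 29.6%, 29.7% and 30.3% of all measured genes. It lay wholly above 1 in 2, 3, 4 and 5 members, against 47%, 46.4%, 47.4% and 46.6%. With a threshold of 1.5-fold in place of 2-fold, 29, 28, 25 and 19 members were lower, against 15.4%, 13.9%, 14% and 14.1% of all measured genes. No member was higher by 1.5-fold at any pressure (0 of 77), against 25.2%, 22.2%, 24.2% and 23.2%.

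**Figure D1:**
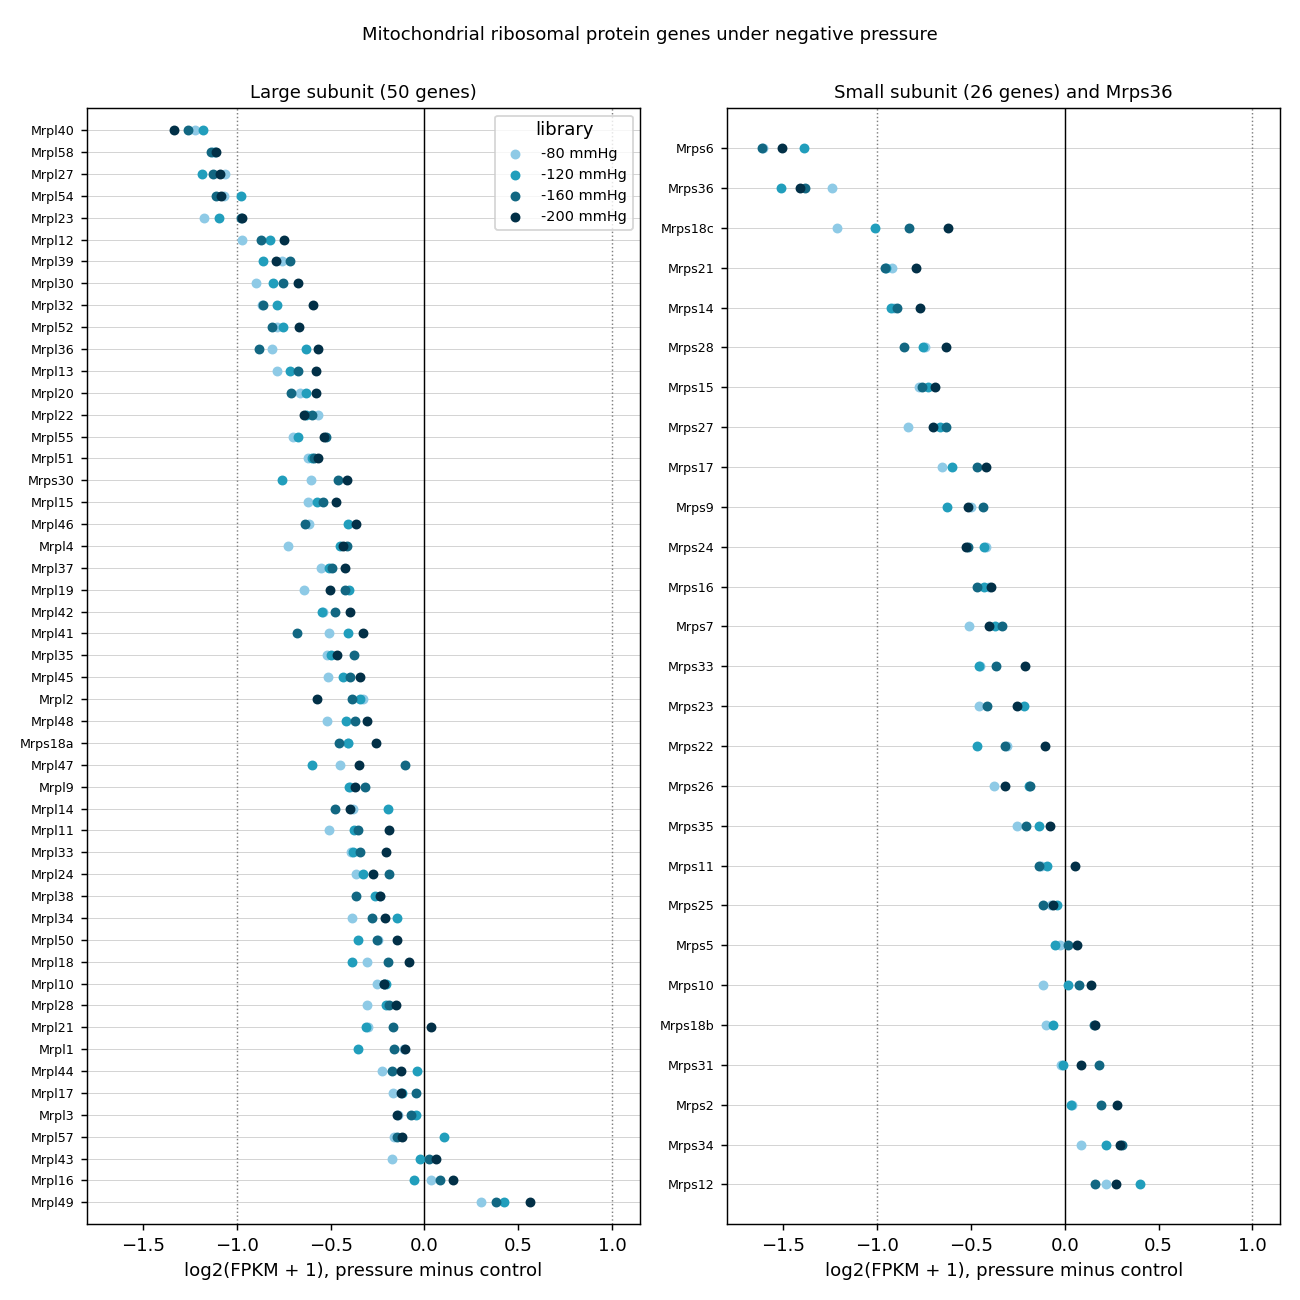
Difference of log2(FPKM + 1), pressure minus control, for the 50 measured large-subunit genes (left) and the 26 small-subunit genes with Mrps36 (right), 1 point per pressure library. Dotted lines mark the size rule at -1 and 1. Most points lie between the lower dotted line and 0, and 5 genes, Mrps6, Mrps36, Mrpl40, Mrpl58 and Mrpl27, have all 4 points beyond the lower line.

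**Figure D2:**
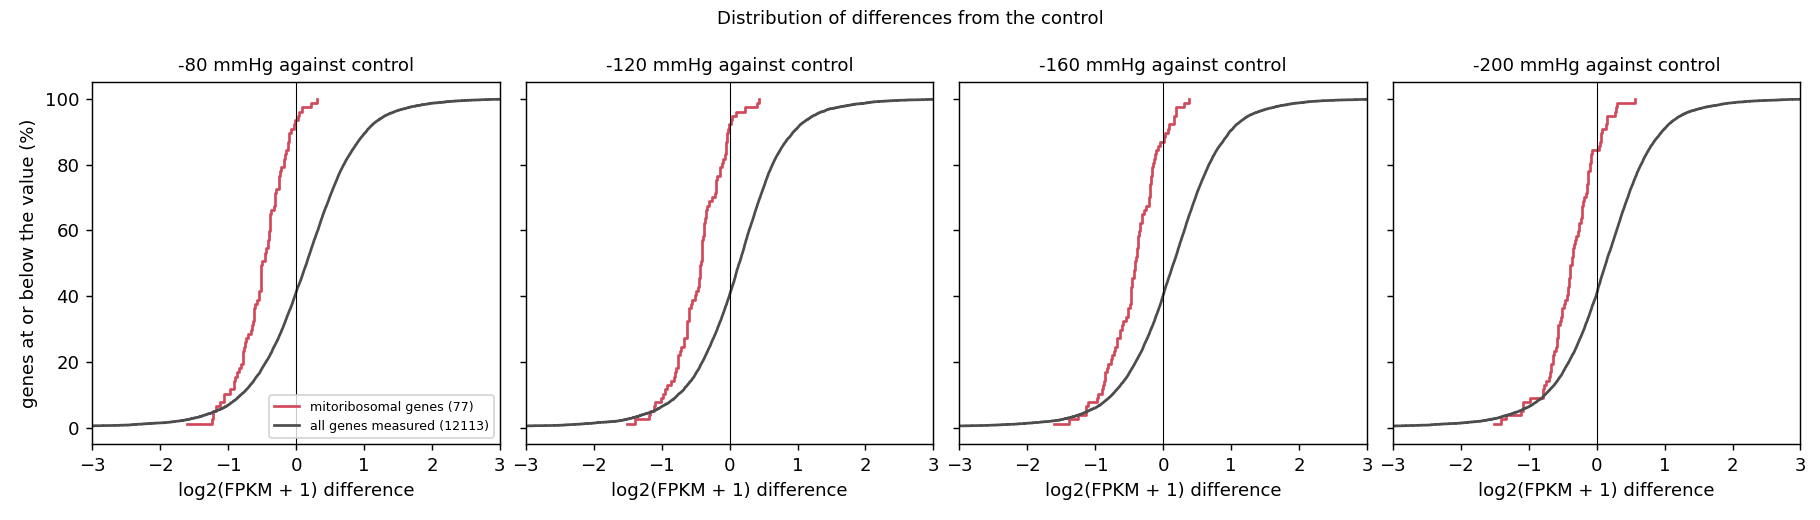
Cumulative share (%) of the 77 measured mitochondrial ribosomal protein genes and of the 12113 measured genes with a log2(FPKM + 1) difference from the control at or below the value on the x axis, 1 panel per pressure. The x axis stops at -3 and 3. The members' curve lies left of the other over most of its range, and the curves meet in the lower tail near the size rule.

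The 2 members that fell most by the mean of the 4 differences were Mrps6 and Mrps36, and the 2 with the largest positive mean were Mrpl49 and Mrps12. Their promoters, 250 bases before to 50 after the RefSeq start on build GRCm38.p6, are shown because these genes bound the range of the members. Capitals mark matches, on either strand, to the letters GGGCGG (GC box), CCGGAAG (ETS factors) and AAGATGGC (YY1), and overlapping GC boxes run together. The regions were chr16:92058086-92058385 on the plus strand for Mrps6, chr13:100744610-100744909 on the minus strand for Mrps36, chr19:6057706-6058005 on the minus strand for Mrpl49 and chr7:28741772-28742071 on the minus strand for Mrps12.
Mrps6: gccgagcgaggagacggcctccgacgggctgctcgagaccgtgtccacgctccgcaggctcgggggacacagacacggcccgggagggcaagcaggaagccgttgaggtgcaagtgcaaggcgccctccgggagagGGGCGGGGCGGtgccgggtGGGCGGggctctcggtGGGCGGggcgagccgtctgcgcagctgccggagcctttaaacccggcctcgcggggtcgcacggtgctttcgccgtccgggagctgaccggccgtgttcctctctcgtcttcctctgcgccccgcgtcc
Mrps36: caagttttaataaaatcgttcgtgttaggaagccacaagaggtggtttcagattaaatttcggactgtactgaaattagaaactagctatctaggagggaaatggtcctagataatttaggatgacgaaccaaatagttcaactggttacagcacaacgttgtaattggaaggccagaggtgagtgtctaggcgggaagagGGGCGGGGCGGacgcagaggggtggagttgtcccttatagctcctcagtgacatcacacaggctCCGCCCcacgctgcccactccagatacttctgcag
Mrpl49: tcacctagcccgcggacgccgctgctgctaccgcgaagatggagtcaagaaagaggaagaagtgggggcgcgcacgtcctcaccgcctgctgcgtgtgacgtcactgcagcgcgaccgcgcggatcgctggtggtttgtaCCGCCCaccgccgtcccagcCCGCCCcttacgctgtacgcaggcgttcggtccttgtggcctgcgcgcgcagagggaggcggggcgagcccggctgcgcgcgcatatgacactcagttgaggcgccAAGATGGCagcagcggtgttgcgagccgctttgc
Mrps12: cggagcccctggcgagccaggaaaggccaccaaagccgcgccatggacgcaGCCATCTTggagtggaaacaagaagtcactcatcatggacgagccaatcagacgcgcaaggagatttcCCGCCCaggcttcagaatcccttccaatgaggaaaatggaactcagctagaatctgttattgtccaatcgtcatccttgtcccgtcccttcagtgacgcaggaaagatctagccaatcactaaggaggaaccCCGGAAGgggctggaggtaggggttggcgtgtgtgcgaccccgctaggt

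The Mrps6 promoter held 4 GC boxes, of which the first 2 overlap, and its GC content was 73.7%. That of Mrps36 held 3 GC boxes at a GC content of 48.3%. The Mrpl49 promoter held 2 GC boxes and a YY1 match just after the start, and the Mrps12 promoter a YY1 match, a GC box and an ETS match at the start. A match is a run of letters and not a measured binding site.

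Over the 69 members with a promoter in the RefSeq table, matches to the letters of 3 factors known to act at nuclear genes for mitochondrial proteins were common. The NRF1 letters, GCGCA and GCGC with any 1 base between them, were in 18.8% of members' promoters and in 10.5% of those of all measured coding genes. The ETS letters were in 34.8% of members' promoters and 18.5% of those of measured coding genes, and the YY1 letters in 17.4% and 4.66%. In all 32851 promoters of the table the 3 shares were 4.60%, 8.86% and 2.75%. At least 1 of the 3 was in 41 of 69 members (59.4%), in 29.9% of measured coding genes and in 14.7% of all promoters. GC boxes were in 49.3% of members' promoters and 64.5% of those of measured coding genes (35.7% of all promoters). The letters TATAAA were in 5.80% of members' promoters, 6.78% of those of measured coding genes and 13.6% of all promoters. The median GC content was 58.3% in the members' promoters, 61.3% in those of measured coding genes and 52.7% in all promoters. Both strands were searched. For members only 1 promoter per gene was taken, the one nearest the annotated gene start, whereas the other shares count every promoter listed for a gene.

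The differences from the control are given with and without these letters. The median over members of the mean of the 4 log2 differences was -0.42 with the NRF1 letters (13 members) and -0.40 without (55 members). It was -0.33 with the ETS letters (23 members) and -0.42 without, and -0.47 with the YY1 letters (12 members) and -0.37 without. These are descriptions over members and were not tested.

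Mrps6, which encodes the counterpart of the bacterial small-subunit protein of that number, had the lowest mean difference from the control, although Mrps36 was lower at -120 mmHg. Its level was 51.6, 16.2, 19.1, 16.2 and 17.5 FPKM at 0, -80, -120, -160 and -200 mmHg, from 1454, 414, 485, 422 and 484 reads. All 4 pressure libraries were far below the control and close to each other. The log2 differences were -1.61, -1.39, -1.61 and -1.51, and the ratio to the control lay between 0.314 (95% interval 0.281 to 0.350, at -160 mmHg) and 0.370 (0.333 to 0.410, at -120 mmHg). The gene lies on chromosome 16 from 92058270 to 92112227 on the plus strand in GENCODE M21, and Slc5a3, a myo-inositol transporter gene, begins just downstream of its start on the same strand. Slc5a3 stood at 4.29, 4.66, 3.99, 4.68 and 4.97 FPKM in the same libraries, so the neighbour with the adjoining start was at about the control level while Mrps6 fell. Of the Mrps6 exon bases 19.9% overlap exons of other genes.

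Mrps36 carries a ribosomal name, but its product is now known as a component of the alpha-ketoglutarate dehydrogenase complex of the citric acid cycle, and it was placed in neither subunit. It stood at 24.7, 9.86, 7.99, 8.81 and 8.65 FPKM at 0, -80, -120, -160 and -200 mmHg. The pressure libraries did not reach the control, and the ratios lay between 0.324 (95% interval 0.271 to 0.385) and 0.400 (0.340 to 0.469). Without it, 4 ribosomal members passed the size rule downwards at all 4 pressures.

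These were Mrpl40, Mrpl58 and Mrpl27 of the large subunit, and Mrps6. Together with Mrps36 they made 5 of 77 members, against 4.46% of all measured genes that passed downwards at all 4 pressures, and 0 members passed upwards at all 4, against 6.49%. Mrpl40, a large-subunit protein specific to mitochondria, fell to 8.81, 9.10, 8.54 and 8.05 FPKM at -80, -120, -160 and -200 mmHg, against 21.9 FPKM in the control. Mrpl58, a peptidyl-tRNA hydrolase that releases peptides from stalled mitochondrial ribosomes and is also built into the large subunit, fell to 5.41, 5.44, 5.36 and 5.48 FPKM, against 13.0 FPKM. Its range over the pressures was 0.03 on the log2 scale, and its ratio to the control was between 0.413 (95% interval 0.361 to 0.472) and 0.422 (0.370 to 0.481). Mrpl27, whose bacterial counterpart reaches the peptidyl transferase centre, fell to 26.1, 23.9, 24.9 and 25.7 FPKM, against 55.7 FPKM.

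The 3 other members among the 8 largest decreases missed the rule at some pressures. Mrpl54, a large-subunit protein specific to mitochondria, stood at 38.5, 41.0, 37.3 and 38.0 FPKM at -80, -120, -160 and -200 mmHg, against 81.6 FPKM in the control, and its difference of -0.98 at -120 mmHg fell short. Mrpl23, a protein of the large subunit with a bacterial counterpart at the exit tunnel, stood at 4.32, 4.61, 5.10 and 5.12 FPKM, against 11.0 FPKM, and its differences of -0.98 at -160 mmHg and -0.97 at -200 mmHg fell short. These values lie just outside the threshold, and those of Mrpl27 at -80 mmHg (-1.07) and of Mrps18c at -120 mmHg (-1.01) just inside it.

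Mammals have 3 paralogues of 1 bacterial small-subunit protein, and their genes differed from the control by unlike amounts. Mrps18c, which takes the place of the bacterial protein in the small subunit, stood at 31.4, 13.0, 15.1, 17.2 and 20.1 FPKM at 0, -80, -120, -160 and -200 mmHg. It was lowest at the weakest pressure and higher at each stronger one, with differences from the control of -1.22, -1.01, -0.83 and -0.62. Its level at -200 mmHg was 1.55 times that at -80 mmHg (95% interval 1.31 to 1.83), and its range of 0.59 on the log2 scale was the largest of any measured member. Mrps18a, which sits in the large subunit despite its name, stood at 21.4, 15.9, 15.9, 15.4 and 17.7 FPKM, with ratios to the control from 0.718 (95% interval 0.661 to 0.779) to 0.828 (0.766 to 0.894). Mrps18b, a further small-subunit protein, stood at 10.7, 9.95, 10.2, 12.1 and 12.1 FPKM, and each of its counting intervals included 1. Of the Mrps18c exon bases 23.2%, of Mrps18b 30.5% and of Mrps18a 0% overlap exons of another gene.

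Among proteins of the large subunit with known roles, the 3 genes at or near the stalk that receives translation factors did not move alike. Mrpl12, a stalk protein that also binds the mitochondrial RNA polymerase, stood at 69.0, 34.7, 38.5, 37.3 and 40.7 FPKM at 0, -80, -120, -160 and -200 mmHg, between 0.503 (95% interval 0.464 to 0.545) and 0.590 (0.547 to 0.635) times the control. Mrpl10, which anchors the stalk, stood at 44.5, 37.1, 38.4, 38.2 and 38.2 FPKM. Mrpl11, at the base of the stalk, stood at 15.1, 10.3, 11.4, 11.6 and 13.1 FPKM. The pressure values of all 3 were below the control, with the smallest mean difference in Mrpl10 (-0.22).

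Mrpl45, which lies at the tunnel exit and tethers the ribosome to the inner membrane, stood at 31.9, 22.1, 23.4, 24.0 and 24.9 FPKM at 0, -80, -120, -160 and -200 mmHg. Mrpl44, related to the RNase III family, stood at 17.0, 14.4, 16.5, 14.9 and 15.5 FPKM. Mrps30, a large-subunit protein under a small-subunit symbol, stood at 6.17, 3.71, 3.24, 4.21 and 4.39 FPKM. None of these 3 passed the size rule, and each had its control as the highest library. The counting intervals of the ratio to the control lay wholly below 1 at every pressure for Mrpl45 and Mrps30. For Mrpl44 this held only at -80 mmHg (0.741 to 0.968), and the intervals at the other pressures included 1.

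**Figure D3:**
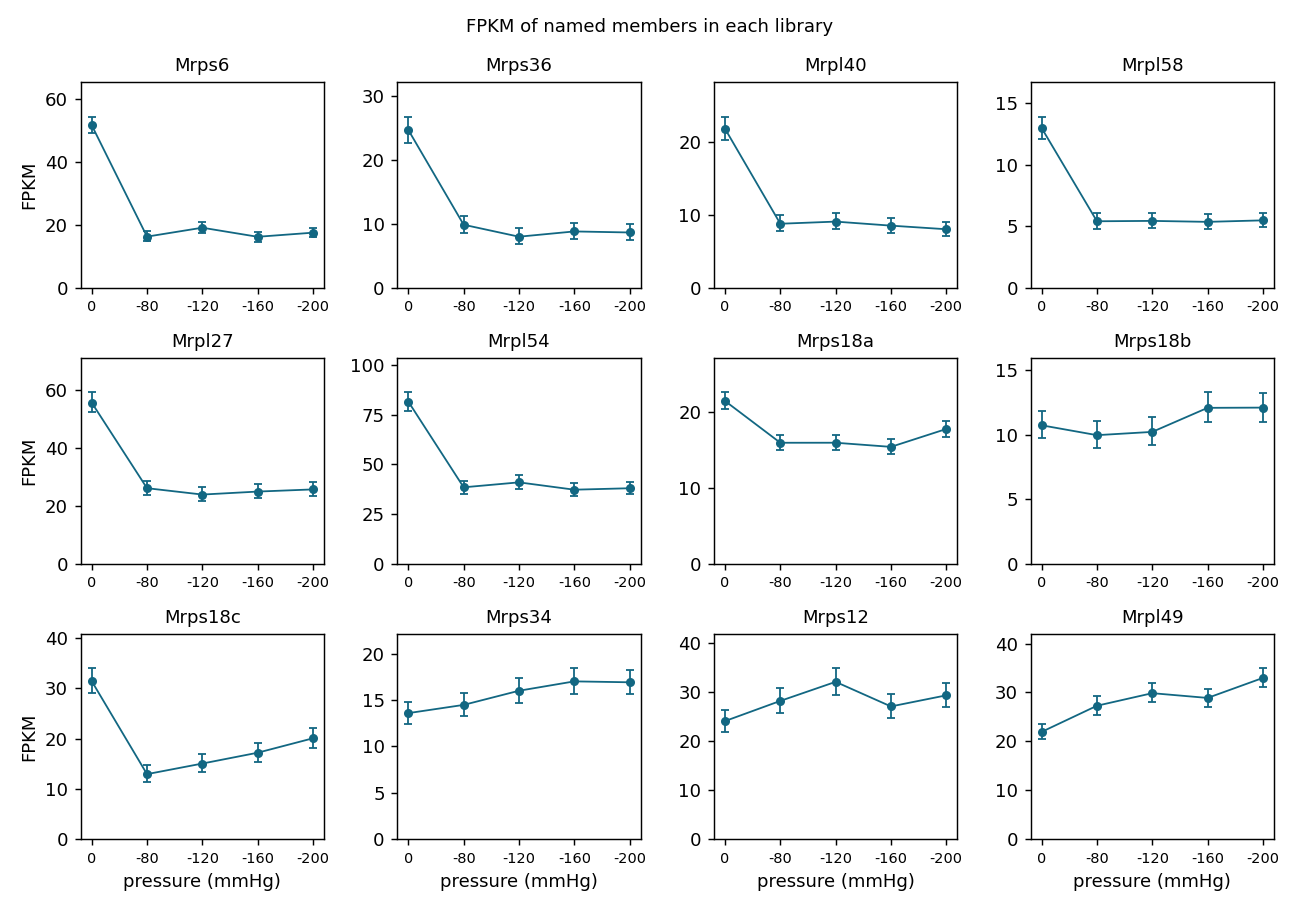
Levels (FPKM) of 12 named members in the 5 libraries, 1 panel per gene. Points are single libraries, lines join them in order of pressure, and error bars are exact 95% Poisson intervals of the reads, which cover counting error only. The pressure points of Mrps6, Mrps36, Mrpl40, Mrpl58 and Mrpl27 lie far below the control, those of Mrps18c step upwards with pressure, and those of Mrpl49 lie above the control.

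The members with the largest positive differences moved less than those with the largest negative ones. Mrpl49, a large-subunit protein specific to mitochondria, stood at 22.0, 27.3, 29.9, 28.9 and 33.0 FPKM at 0, -80, -120, -160 and -200 mmHg. All pressure values were above the control, and the 95% interval of the ratio at -200 mmHg was 1.37 to 1.65. Mrps12, the counterpart of a bacterial protein at the decoding centre, stood at 24.1, 28.3, 32.1, 27.1 and 29.4 FPKM, with a ratio of 1.33 (1.17 to 1.51) at -120 mmHg and an interval that included 1 at -160 mmHg (0.987 to 1.28).

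Mrps34, needed for a stable small subunit, stood at 13.6, 14.5, 16.0, 17.0 and 16.9 FPKM at 0, -80, -120, -160 and -200 mmHg. Of its exon bases 77.8% overlap exons of other genes, so reads of a neighbour may be among these. Mrps2, of bacterial descent, stood at 12.0, 12.4, 12.3, 13.9 and 14.8 FPKM, with counting intervals that included 1 at -80 and -120 mmHg. Its mean difference of 0.14 on the log2 scale turned to -0.02 when the trimmed mean of log ratios to the control was set to 0.

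Mrpl16 and Mrps31, next in order, stood close to the control. Mrpl16 had 7.13, 7.34, 6.82, 7.62 and 8.06 FPKM and Mrps31 8.16, 8.02, 8.09, 9.41 and 8.72 FPKM. Their mean differences of 0.05 and 0.06 turned negative under the same rescaling, as did that of Mrps18b (0.04).

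By level per length, the 4 most abundant members were Mrpl34, Mrps21, Mrpl14 and Mrpl28. Mrps21, of the small subunit, had the highest level of any member in the control, with 121.1 FPKM, and 63.5, 62.0, 61.7 and 69.5 FPKM at -80, -120, -160 and -200 mmHg. Its differences from the control, -0.96 to -0.79, came close to the size rule without passing it. The 3 others are large-subunit proteins of bacterial descent and differed less. Mrpl34 stood at 91.1, 69.5, 82.3, 74.9 and 78.6 FPKM, Mrpl14, the binding partner of an assembly factor that keeps the subunits apart, at 91.2, 69.9, 79.7, 65.2 and 69.0 FPKM, and Mrpl28 at 80.2, 64.7, 69.4, 70.2 and 72.0 FPKM. In the control Mrps21 was therefore first, and under each pressure Mrpl34 was above Mrps21.

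The least abundant members were Mrpl53, Mrpl48 and Mrpl47. Mrpl48 stood at 4.20, 2.63, 2.90, 3.02 and 3.21 FPKM and Mrpl47 at 4.78, 3.24, 2.82, 4.38 and 3.55 FPKM at 0, -80, -120, -160 and -200 mmHg. Mrpl47 had the second widest range among the pressures (0.49), with its highest pressure value at -160 mmHg, and Mrps22, of the small subunit, ranged from 4.57 FPKM at -120 mmHg to 6.16 FPKM at -200 mmHg, against 6.70 FPKM in the control. Mrpl53 had 0 reads in all libraries. Of its exon bases 88.0% lie on exons of Gm42688, an overlapping coding gene on the same strand, which itself had 17, 24, 7, 16 and 28 reads, so no level of Mrpl53 can be given.

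Both subunits lay below the control. In the 50 measured large-subunit genes the median difference was -0.51, -0.41, -0.42 and -0.38 in order of pressure, and 45 of them were below the control at all 4 pressures. In the 26 small-subunit genes it was -0.41, -0.40, -0.35 and -0.29, and 18 of them were below it at all 4. These were 90% and 69.2% of the measured genes. The difference between the means of the 4 medians, large minus small, was -0.07 and was not tested. Genes of bacterial descent (45 measured) had medians of -0.50, -0.43, -0.41 and -0.42, and genes specific to mitochondria (28 measured) -0.48, -0.41, -0.38 and -0.31. The 9 small-subunit genes specific to mitochondria had the smallest differences of these classes, -0.31, -0.19, -0.21 and -0.10.

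The shortest members differed most. The 25 members with the shortest exon length had a mean of the 4 medians of -0.61, the middle 27 of -0.33 and the longest 25 of -0.42. Spearman's rho between exon length and the mean difference was 0.21 over the 77 measured members, and Pearson's r with the log of the length was 0.22. Over all measured genes r was 0.15. These are descriptions across genes, which share the same 5 libraries. With the trend of the difference with exon length over all genes removed, the members' mean of the 4 medians was -0.28 in place of -0.42, and the signs of Mrpl10, Mrpl14, Mrpl28, Mrpl34 and Mrpl44 turned positive. The members' median exon length was 2533 nt, against 4058 nt over all measured genes.

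By the size rule and the range, the members varied between pressures about as much as all measured genes. No member differed 2-fold between any pair of pressure libraries (0 of 77 in each of the 6 pairs). Of all measured genes 0.883% did so at -120 against -80 mmHg, 0.9% at -160 against -80 mmHg and 0.974% at -160 against -120 mmHg. At -200 mmHg the shares were 0.826% against -80 mmHg, 0.85% against -120 mmHg and 0.9% against -160 mmHg. A count of 0 of 77 lay near these shares. The median range over the 4 pressures was 0.20 on the log2 scale, near the 0.22 of all measured genes.

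The small differences between the weakest and the strongest pressure leaned 1 way. These comparisons do not use the control. At -200 mmHg 65 of 77 members (84.4%) were higher than at -80 mmHg, against 47.4% of all measured genes, and the median difference was 0.13, against -0.01. The summed reads of the members were 1.10 times those at -80 mmHg per library total (95% interval 1.08 to 1.11). The counting interval of the ratio lay wholly above 1 in 34 members, against 17.7% of all measured genes, and wholly below 1 in 1 member, against 21.2%. That member was Mrpl2, a large-subunit protein of bacterial descent with 58.0, 57.4, 55.5 and 48.7 FPKM at -80, -120, -160 and -200 mmHg. The standard deviation of the difference over members was 0.13, against 0.24 over all measured genes.

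Of the 77 members 16 (20.8%) were higher at every step from -80 to -200 mmHg, against 5.67% of all measured genes, among them Mrps18c, Mrpl11, Mrpl28, Mrpl45 and Mrpl48. Mrpl2 and Mrps24 were lower at every step, against 6.19%. The highest of the 4 pressure values was at -200 mmHg in 44 members (57.1%), against 23.6%, and the lowest was at -80 mmHg in 37, against 25.9%. With 1 library per pressure, pressure and library cannot be told apart. Cytosolic ribosomal protein genes were also higher at -200 than at -80 mmHg, with a median difference of 0.20 and 75 of 76 higher. Nuclear respiratory chain genes, a list that also takes in ATP synthase genes, had 0.16 and 65 of 76 higher. The medians of both lists against the control were not ordered over the 4 pressures. They were -0.96, -0.83, -0.90 and -0.74 for the cytosolic ribosomal protein genes and -0.75, -0.67, -0.71 and -0.63 for the respiratory chain genes.

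**Figure D4:**
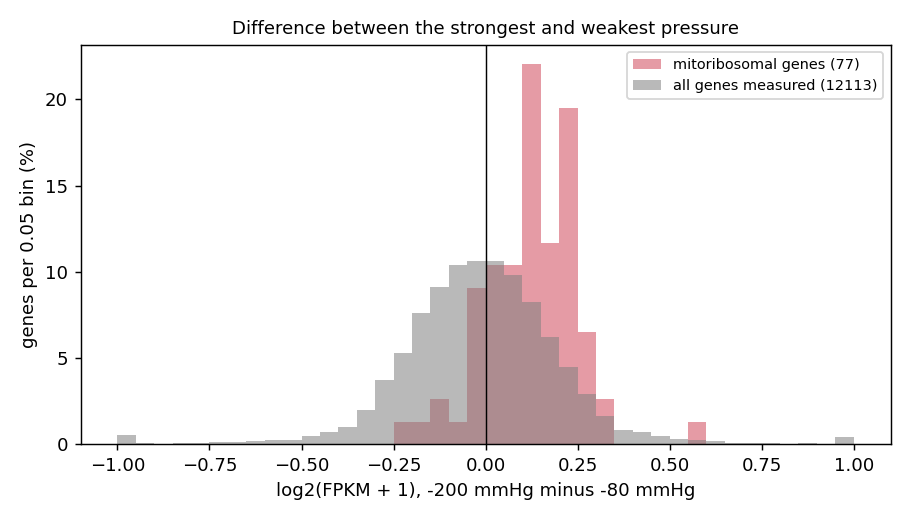
Share (%) of genes in bins of 0.05 of the log2(FPKM + 1) difference, -200 mmHg minus -80 mmHg, for the 77 measured members and the 12113 measured genes. Values beyond -1 and 1 are counted in the end bins. The members' bars lie mostly right of 0, around a median of 0.13.

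Members were set beside other genes of mitochondrial gene expression. Of 5 further mitoribosome proteins without an Mrp symbol, Dap3, a GTP-binding small-subunit protein, stood at 20.8, 12.3, 13.2, 14.4 and 13.7 FPKM at 0, -80, -120, -160 and -200 mmHg. Aurkaip1 and Chchd1, both of the small subunit, and Gadd45gip1, of the large subunit, also had their highest value in the control. Ptcd3, a small-subunit protein of the pentatricopeptide repeat family, went the other way, with 12.0 to 15.0 FPKM under pressure against 8.95 FPKM in the control. The list's mean of the 4 medians was -0.52, and 0 of 5 passed the size rule in either direction, where 78.1% of all measured genes passed at no pressure.

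Among genes that build or use the mitoribosome the differences from the control were small as deposited. The 23 measured assembly factors (of 24) had a mean of the 4 medians of 0.13, the 14 measured translation factors (of 16) -0.01, the 16 measured mitochondrial tRNA synthetases (of 17) -0.12, and the 12 genes for transcription and replication of mitochondrial DNA 0.11. In these 4 lists 0 genes passed the size rule at any pressure, and of all measured genes 78.1% passed it at none. Tufm, the elongation factor that brings tRNAs to the mitoribosome, stood at 50.1, 39.1, 45.7, 45.9 and 45.3 FPKM. Polrmt, the mitochondrial RNA polymerase, stood at 6.71, 8.95, 8.72, 7.95 and 7.45 FPKM, and Tfam, which packages mitochondrial DNA, at 12.5, 11.4, 11.8, 11.4 and 13.0 FPKM. The assembly and transcription lists lay at -0.06 to -0.01 under the trimmed mean of log ratios, upper-quartile scaling and quantile normalization, so no direction is given for them. In these 3 settings the translation factors stood at -0.16, -0.19 and -0.12 and the tRNA synthetases at -0.26, -0.30 and -0.29.

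The 13 mRNAs that the mitoribosome translates had a mean of the 4 medians of 0.06, which ran from -0.16 under upper-quartile scaling to 0.42 with the exon-length trend removed, so no direction is given for them. Of these, mt-Nd4l passed the size rule upwards at -80 and -160 mmHg, with 1.65, 6.27, 3.65, 4.95 and 2.42 FPKM, and the other 12 passed at no pressure. Of 7 measured regulators of mitochondrial gene expression (of 9), 0 passed, and of all measured genes 78.1% passed at no pressure. Myc, a transcription factor known to raise expression of nuclear genes for mitochondrial proteins, stood at 31.8, 50.2, 51.5, 49.2 and 48.8 FPKM, and Ppargc1a, a coactivator of mitochondrial biogenesis, at 0.322, 0.264, 0.274, 0.303 and 0.269 FPKM, below the limit of 1 FPKM. Among 16 genes often used as markers of mitochondrial mass the mean of the 4 medians was -0.34, and Hspe1, the small mitochondrial chaperonin, passed downwards at all 4 pressures with 45.7 to 52.4 FPKM against 145 FPKM in the control.

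**Figure D5:**
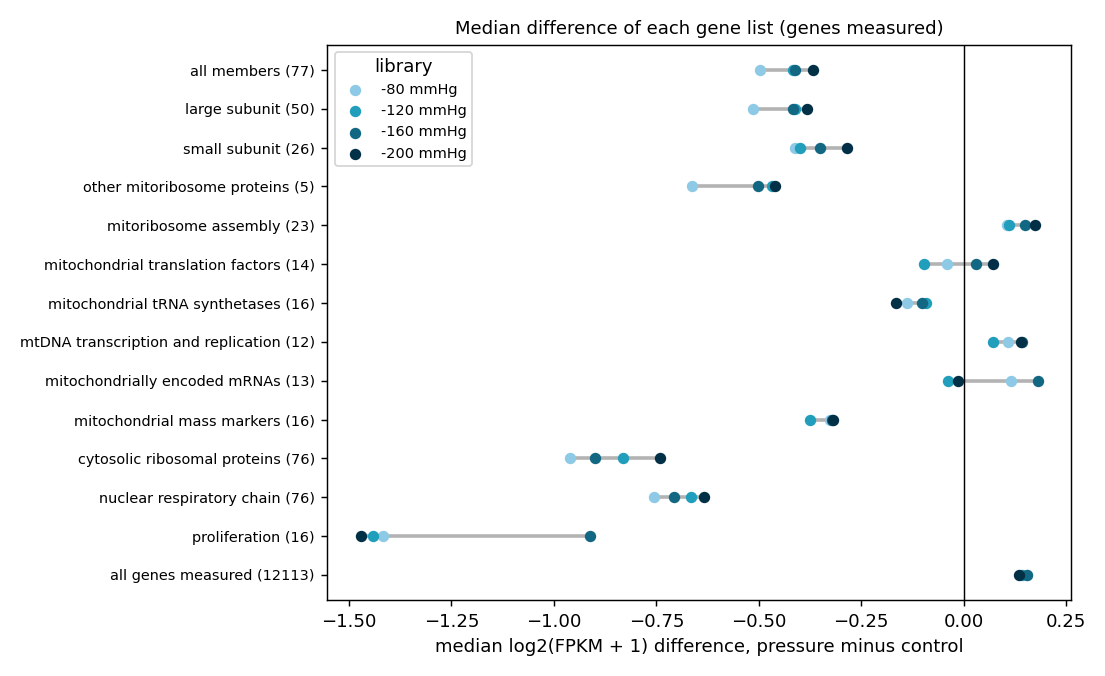
Median log2(FPKM + 1) difference from the control of each gene list, 1 point per pressure library, with the number of measured genes in brackets. The mitochondrial ribosomal protein genes lie, with FPKM as deposited, between the assembly and translation factor lists near 0 and the cytosolic ribosomal, respiratory chain and proliferation lists further below it.

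With FPKM as deposited, larger differences were seen for the cytosolic ribosome and the nuclear-encoded respiratory chain with ATP synthase, an order that depended on the scaling. The 76 measured cytosolic ribosomal protein genes (of 79) had a mean of the 4 medians of -0.86, and 33, 21, 22 and 14 passed the size rule downwards at -80, -120, -160 and -200 mmHg. The 76 measured nuclear respiratory chain genes (of 77) had -0.69, and 24, 17, 17 and 10 passed. The members had -0.42, with 8, 7, 6 and 6 passing. Of all measured genes 6.89%, 6.45%, 6.03% and 6.38% passed downwards at these pressures. None of these 3 lists had a gene past the rule upwards, against 8.85% to 10.7% of all measured genes. Under quantile normalization the members stood at -0.42, the cytosolic ribosomal protein genes at -0.36 and the respiratory chain genes at -0.49, so the cytosolic list was then nearer the control than the members. The 16 proliferation genes had a mean of the 4 medians of -1.31, with -0.91 at -160 mmHg and -1.42 to -1.47 at the other pressures, while the members' median at -160 mmHg lay between those at the neighbouring pressures. The lists share the same control, and the differences between them were not tested.

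Some members start close to another gene. Neighbouring starts were looked up for the members only, so no share over all genes can be set beside these counts. Of the 78 members 25 have a coding neighbour on the opposite strand whose start lies within 500 bp, in 24 pairs, since Mrpl46 and Mrps11 are neighbours of each other. Over the 24 pairs, with Mrpl46 taken as the member of that pair, the median of the mean difference was -0.45 for the members and -0.08 for their neighbours, which ranged from -1.47 to 0.75. The member was below its neighbour in 14 of the 24 pairs, and no such share was computed for pairs of other genes. Mrpl36 lies 29 bp from Ndufs6, a respiratory complex I gene, and both were lower, with mean differences of -0.72 and -1.33. Mrpl54 lies 26 bp from Apba3, an adaptor protein gene, with -1.06 and -0.08. Mrps18c lies 29 bp from Helq, a DNA helicase gene, with -0.92 and 0.16.

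The promoter shown for Mrpl49 lies beside the start of Fau, 59 bp away, which encodes the cytosolic ribosomal protein S30 fused to a ubiquitin-like protein. Fau stood at 1051, 764, 818, 757 and 825 FPKM at 0, -80, -120, -160 and -200 mmHg and was lower under each pressure, whereas Mrpl49 was higher. Sars2, the mitochondrial seryl-tRNA synthetase gene 172 bp from Mrps12, had a mean difference of -0.13 where Mrps12 had 0.26. The pairs of Mrpl49 and Mrps12 thus lay on opposite sides of the control, as did others such as Mrps18c and Helq. Over the 24 pairs the mean difference was below 0 in 19 members and in 14 neighbours, and in both genes of 12 pairs. These counts have no share over other pairs beside them, and whether members and neighbours moved together was not tested.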

How the data were processed

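RNA-seq was available for 5 libraries, 1 each at 0, -80, -120, -160 and -200 mmHg. The values are FPKM per gene, computed and deposited by the authors in a single table. The tools were HISAT2, SAMtools and featureCounts 1.5.0-p3, per the submitters' processing notes, which name the rat build rn6. The 55401 gene IDs are all from mouse Ensembl, so mouse annotation was used. The sources used here do not say whether counting used strand, so reads of overlapping genes, antisense genes and near-identical copies cannot be told apart.

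Symbols, biotypes, coordinates and exon lengths came from GENCODE release M21, which held 54349 IDs in the same version and 55141 when versions were ignored. The deposited FPKM times exon length gave whole reads in 54719 genes (98.8%, tolerance 0.001 reads). The step gave the library totals, and recovered reads made up 98.1% to 98.5% of these. Reads served only for counting intervals (exact, 95%), sums and read numbers, which leave out all error other than counting, since PCR reads with no molecular identifiers are not independent molecules.

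Values were compared as log2(FPKM + 1) differences over genes averaging at least 1 FPKM, counted by a 2-fold rule of size. With 1 library per condition no test was made. The members, gene lists and rules were chosen with earlier results of these data known. Members were named by rule, as the 8 largest decreases and 6 largest increases, the 4 most and 3 least abundant, the 3 widest ranges among pressures and 13 genes by role. Mrpl2, Mrps24 and the neighbouring genes were named after their values were seen. Subunit and descent of each member came from a hand-written list. Promoters came from the RefSeq table on GRCm38.p6. The alternatives were pseudocounts of 0.1 and 5, filters at a mean of 5 FPKM or none, quantile normalization, upper-quartile scaling, scaling to a trimmed mean of log ratios of 0 (30% off each end), totals without the 50 most abundant genes, a 1.5-fold rule, removal of the exon-length trend (50 bins), coding genes as background, subunit by symbol and the mean of members. Leaving out each pressure library and leaving out members with exon overlap were added after the data were seen. The functions were tested on simulated reads. The software was Python 3.11.15, with matplotlib 3.10.9, scipy 1.17.1, pandas 2.3.3 and numpy 2.4.6. Columns of other samples numbered 0.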

Additional observations from a re-analysis of the deposited data

How the results depend on the processing

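No paired analysis was possible because each condition had 1 library. No member passed the size rule upwards under any alternative that kept the 2-fold threshold or lowered it to 1.5-fold. The counts passing downwards at -80, -120, -160 and -200 mmHg (8, 7, 6 and 6) became 29, 28, 25 and 19 with the 1.5-fold rule and 4, 3, 3 and 3 among the 45 members with no exon overlap. With the trimmed mean of log ratios they became 13, 11, 13 and 7, and with upper-quartile scaling 16, 12, 15 and 7. With a pseudocount of 5 they became 2, 3, 4 and 4, and with the exon-length trend removed 3, 4, 4 and 4. The shares of all genes past the rule were not computed for these scalings, pseudocounts and the trend removal. These counts therefore cannot be set against a background. The mean of the 4 medians (-0.42) was -0.58 with the trimmed mean, -0.62 with upper-quartile scaling, -0.45 and -0.33 with pseudocounts of 0.1 and 5, -0.28 with the exon-length trend removed, -0.45 as a mean of members and -0.45 without exon overlap. The same less the median of all genes (-0.57) was -0.41 with no filter, -0.50 with a mean of at least 5 FPKM, -0.62 and -0.42 with pseudocounts of 0.1 and 5, -0.47 with quantile normalization, -0.43 with the length trend removed and -0.60 without exon overlap.

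The 4 members above the control at all pressures became 12 with the length trend removed, 1 with the trimmed mean, 1 with upper-quartile scaling and 2 without exon overlap, where 38 of 45 were below it and 37 of 45 were higher at -200 than at -80 mmHg. The 64 members below the control became 56 with the length trend removed and 73 with upper-quartile scaling. The 65 members higher at -200 than at -80 mmHg became 57 and 71 in these settings. Large minus small subunit (-0.07) was -0.0405 with the length trend removed, -0.10 as a mean, -0.0947 and -0.0505 with pseudocounts of 0.1 and 5, -0.11 with quantile normalization, -0.0332 by symbol and -0.10 without exon overlap. The spread between -200 and -80 mmHg (0.13) was 0.10 with a pseudocount of 5. Leaving out each pressure library in turn gave 64 to 66 members below the control, 4 to 5 above it, a mean of the medians of -0.44 to -0.40, of -0.59 to -0.54 less all genes, and of -0.0892 to -0.0583 for large minus small subunit. Without the -120 or the -160 mmHg library the members higher at -200 mmHg stayed at 65 and the spread at 0.13.

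The median of all genes (0.15) became 0.00 with the trimmed mean, -0.04 with upper-quartile scaling and 0.05 with quantile normalization. In these 3 settings the assembly list (0.13) turned to -0.00620, -0.0441 and -0.0559 and the list for transcription and replication of mitochondrial DNA (0.11) to -0.0214, -0.0561 and -0.0565. The mitochondrially encoded mRNAs (0.06) turned to -0.11 with the trimmed mean, -0.16 with upper-quartile scaling and -0.13 with totals that leave out the 50 most abundant genes, but stood at 0.18 with quantile normalization and 0.42 with the exon-length trend removed. The cytosolic ribosomal protein list (-0.86) was -0.36 and the respiratory chain list (-0.69) -0.49 with quantile normalization, against -0.59 and -0.45 with the exon-length trend removed. The cause was not tested, except that fewer members were counted without exon overlap.

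The measured members had 169 to 3429 reads per library, and variation between cultures was not measured.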

Other observations

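Mrpl23, which stood at 0.392 to 0.465 times the control under pressure, lies on chromosome 7 near the imprinted H19 locus. H19, a long non-coding RNA gene chosen here after its values were seen, had 1745, 0, 0, 2 and 0 reads at 0, -80, -120, -160 and -200 mmHg, or 38.6 FPKM in the control. Mrpl23 itself had 989, 351, 374, 424 and 451 reads, so the 2 genes were both lower under pressure, by very different amounts.

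Reads listed under 5 pseudogenes of mitochondrial ribosomal protein genes were few, at 43, 13, 24, 22 and 15 in all at 0, -80, -120, -160 and -200 mmHg, beside 79423, 49237, 51253, 52968 and 58554 reads of the members.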
